A study of Mus musculus with 10 samples.

Results

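The BCL2 family survival and death genes were described in RAW264.7 cells, a transformed mouse macrophage cell line, that had been activated with lipopolysaccharide (LPS) with or without compound 1, a monounsaturated keto fatty acid that carries an enone, that is a carbonyl next to a double bond. The set held 10 of the 43432 genes in the count table and was listed by gene name, with no measured value in the rule, though earlier results of these data were known: the prosurvival genes Bcl2l1, Mcl1, Bcl2a1a, Bcl2a1b and Bcl2a1d, the effector genes Bax and Bak1, and the BH3-only genes Bcl2l11, Bbc3 and Pmaip1. All 10 passed the filter on low counts and were among the 14172 genes tested. There were 5 conditions with 2 libraries each: DMSO, with solvent alone at 0.5% and no LPS; DMSO + LPS, with solvent and 1 µg/mL LPS; and 3.2, 10 or 32 µM of 1 with 1 µg/mL LPS. The study's methods describe 1 h of treatment before LPS, and RNA was taken at 12 h. No condition held the compound without LPS. The labels number the libraries of a condition under the tag biorep and do not say whether they were separate cultures, so p-values measure the spread between these samples, which may be technical.

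BCL2 family proteins decide whether the outer membrane of the mitochondrion stays intact. The effectors BAX and BAK form pores that release cytochrome c, the prosurvival proteins (BCL-XL from Bcl2l1, MCL1, and A1 from the Bcl2a1 genes) hold them in check, and BH3-only proteins such as BIM (Bcl2l11), PUMA (Bbc3) and NOXA (Pmaip1) neutralise the prosurvival proteins or engage the effectors. In activated macrophages, Bcl2a1 and Bcl2l1 are known targets of NF-kB, the transcription factor that LPS switches on. RNA levels were measured here, not proteins, and in bulk samples fewer cells of a type and less RNA per cell cannot be told apart.

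The mouse has several near-identical copies of Bcl2a1 on chromosome 9, and their sequences bear on how well the table can separate them. In GRCm38, Bcl2a1d lay at chr9:88723285-88731914 on the minus strand, Bcl2a1a at chr9:88956900-88962419 and Bcl2a1b at chr9:89199209-89207827, both on the plus strand. Over 516 coding bases, Bcl2a1a and Bcl2a1b differed at 11 positions (97.9% identity), Bcl2a1a and Bcl2a1d at 7 (98.6%) and Bcl2a1b and Bcl2a1d at 6 (98.8%). The first 120 coding bases hold 7 of the 12 positions at which any of the 3 genes differs, and are shown with those positions in capitals (annotation GENCODE M21).
Bcl2a1a: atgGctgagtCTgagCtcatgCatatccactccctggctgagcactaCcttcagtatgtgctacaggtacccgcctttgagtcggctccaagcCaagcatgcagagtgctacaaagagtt
Bcl2a1b: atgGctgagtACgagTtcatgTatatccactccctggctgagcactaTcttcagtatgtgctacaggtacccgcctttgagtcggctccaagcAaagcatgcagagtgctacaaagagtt
Bcl2a1d: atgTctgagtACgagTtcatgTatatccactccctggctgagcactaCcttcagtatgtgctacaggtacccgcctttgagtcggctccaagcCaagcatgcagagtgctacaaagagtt
Of all 150-base windows along the longest transcript, 28.2% for Bcl2a1a, 41.9% for Bcl2a1b and 30.3% for Bcl2a1d also occurred unchanged in another gene. Bcl2a1b in addition shared 401 of its 817 exonic bases (49.1%) on the same strand with the annotated gene Gm29094, which had 0 counts in every library. The counts of the single copies are therefore uncertain, and the summed family is given beside them. The sum does not restore reads that the counting may have left out, and how reads that match several genes were counted is not given.

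The 3 Bcl2a1 genes also share the sequence before their start, and it is shown because they moved with LPS. RefSeq promoters (GRCm38.p6) were found for 9 of the 10 genes, not Pmaip1. A 100-base stretch is printed, read on each gene's own strand. Capitals mark the match to TGANTCA, a loose pattern searched for AP-1 on both strands that allows any middle base. The match is TGAATCA in all 3 genes, so it lacks the C or G in the middle of the strict AP-1 letters. The 3 stretches are near-identical copies, and their matches are not separate finds.
Bcl2a1a (chr9:88956740-88956839): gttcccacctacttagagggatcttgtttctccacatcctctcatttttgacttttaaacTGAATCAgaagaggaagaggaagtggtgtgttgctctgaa
Bcl2a1b (chr9:89199049-89199148): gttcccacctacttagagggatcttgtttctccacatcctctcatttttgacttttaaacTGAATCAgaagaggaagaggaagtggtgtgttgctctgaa
Bcl2a1d (chr9:88731925-88732024): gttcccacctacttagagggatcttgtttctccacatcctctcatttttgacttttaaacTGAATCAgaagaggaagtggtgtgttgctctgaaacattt
The loose pattern TGANTCA occurred in 6.75% of the 32851 promoters in the table, over the 250 bases before the start. The kappaB consensus, which occurred in 3.9% of them, had a match in the windows of Bcl2l1 and Bbc3 only among these genes. The letters TGACNNNGC (antioxidant response element, in 10.2% of promoters) matched in 1 window of Bcl2l1, and TTGCNNAA (C/EBP, in 9.56%) in no member. The pattern TGANTCA reads alike on both strands, though the match TGAATCA does not, and the letters of the pattern can overlap TGACNNNGC. These matches describe letters and were not tested as binding sites.

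Libraries held 45966803 to 58976377 counts. Levels are given in CPM, counts scaled to 1000000 per library after TMM normalisation, and the smallest library had 229.8 counts at 5 CPM, a counting error of 6.60%. All 9 macrophage markers were detected in all 10 libraries. Their summed levels were 10856 to 11774 CPM in DMSO, 10190 to 10322 CPM in DMSO + LPS and 7854 to 8280 CPM at 32 µM. Of the 9, 4 were called lower at 32 µM against DMSO + LPS, where 2.91% of all tested genes were. Of 10 markers of other cell types, the T cell genes Cd3e and Cd8a were at 0 in every library, but 10 µM replicate 1 had 451 counts of Epcam and 1039 of Krt8, both epithelial genes, and 43 of the fibroblast gene Col1a1. The library of 3.2 µM replicate 1 had 78 counts of Epcam and 153 of Krt8, and the other 8 libraries had 0 to 2. The summed level of this list was 33.9 CPM in the former, 5.67 CPM in the latter and 0.510 to 0.863 CPM elsewhere. In 32 µM replicate 2, Gm42418 and Gm23935, features that collect ribosomal RNA reads, took 3.61% of counts against 0.0646% to 0.263% elsewhere. Replicates also differed in a short-transcript score. It was calculated as the median log2 CPM, relative to the mean of all libraries, of 1418 genes whose transcripts are shorter than 1000 nt. For replicates 1 and 2 the score was 0.26 and -0.10 in the libraries with 10 µM, 0.16 and -0.19 in those with 32 µM, and -0.04 and -0.36 in DMSO. The results were also computed with the score as a covariate and without each library in turn. What part the Epcam, Krt8 and ribosomal counts have in them was not otherwise tested. The treatments themselves were visible: Nos2 and Il1b, genes of the inflammatory response, rose with LPS and were lower at 32 µM by 2.19 and 1.69 on the log2 scale (edgeR adjusted p = 5.41e-06 and 5.43e-07). Nqo1, a target of Nrf2, rose 7.70-fold with LPS without the compound. At 32 µM it was higher than in DMSO + LPS by 2.63 on the log2 scale (edgeR adjusted p = 6.36e-06).

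LPS raised all 5 prosurvival genes, Mcl1 1.29-fold, Bcl2l1 3.27-fold and the 3 Bcl2a1 copies by more, raised the BH3-only gene Bcl2l11 8.17-fold and lowered Bbc3 to 0.402 of its level in DMSO, while the effectors changed by less than 1.5-fold. A gene was called when the Benjamini-Hochberg adjusted p of edgeR's quasi-likelihood test over all 14172 genes was below 0.05 and the change was at least 1.5-fold. By this rule 6 of the 10 genes were called, 5 higher and 1 lower, where 28.2% of all tested genes were called, 14.6% higher and 13.6% lower. The median log2 fold change of the 10 genes was 1.04, and that of all tested genes 0.0026. At an adjusted p below 0.05 with no limit on fold, 7 of the 10 were higher and 2 lower, against 25.2% and 25.8% of all tested genes, and Bax did not pass.

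**Figure D1:**
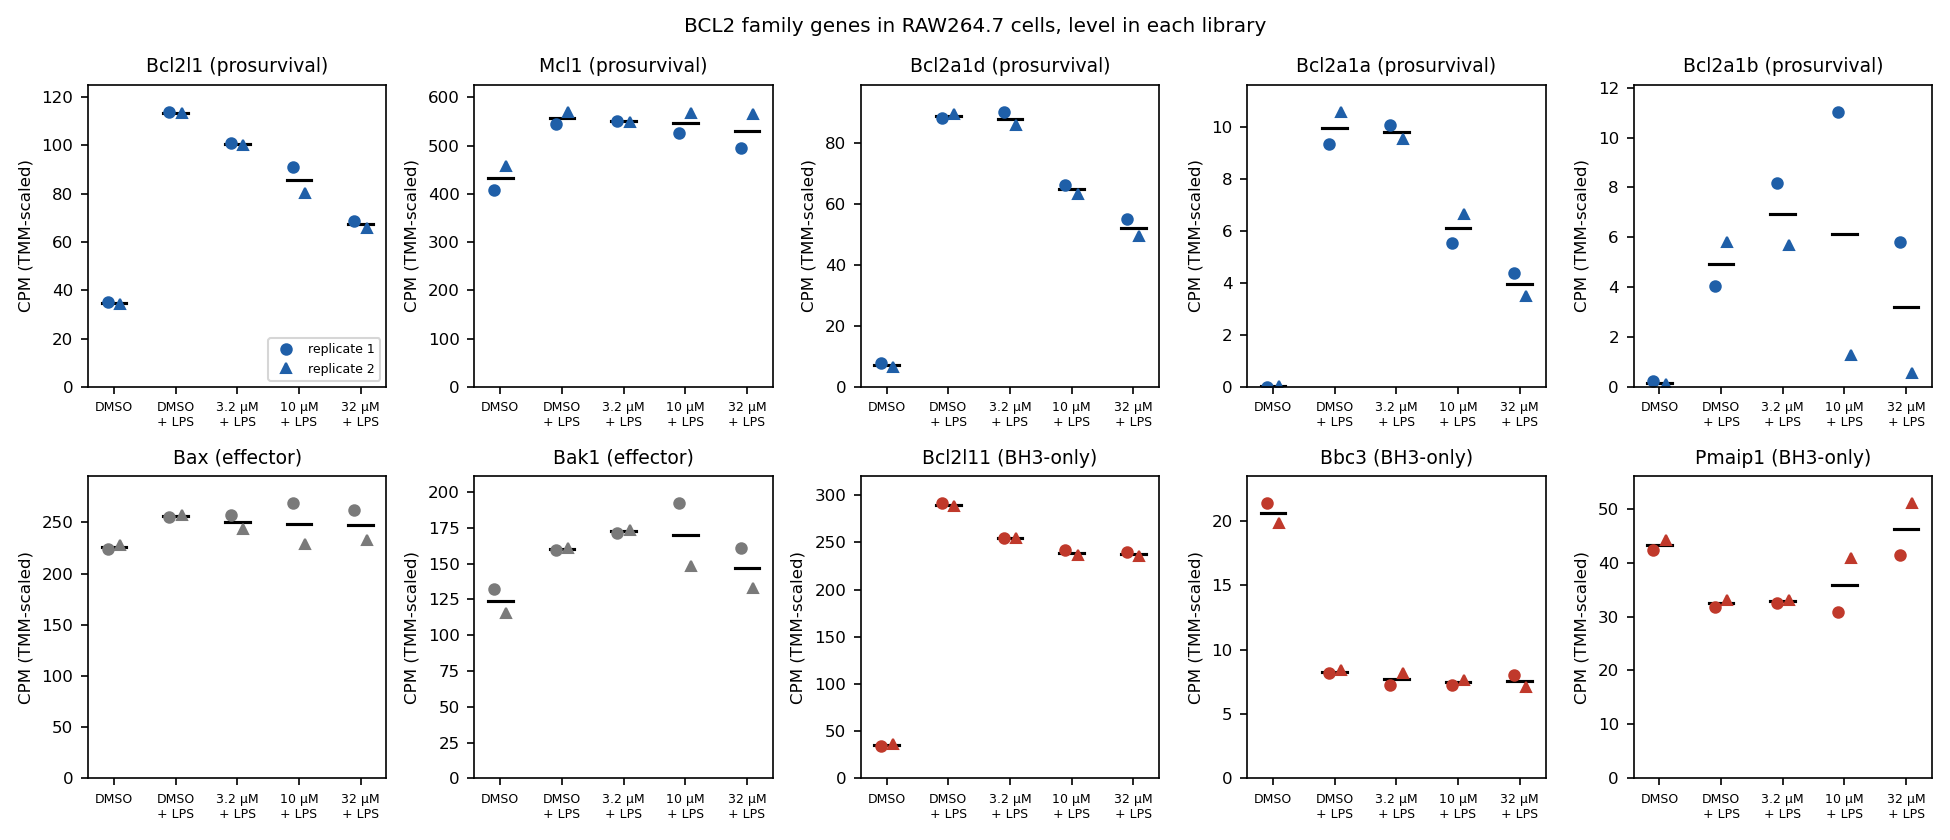
Level of each of the 10 genes (y axis, TMM-scaled CPM, from 0) in every library of the 5 conditions (x axis); circles are replicate 1, triangles replicate 2, and black lines the mean of the 2 libraries. Bcl2l1 and Bcl2a1d stepped down between 3.2 and 32 µM, Mcl1 and Bax stayed near their DMSO + LPS level, and Bcl2a1b had replicates far apart at 10 and 32 µM.

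Bcl2l1, which encodes BCL-XL, was at 35.1 and 34.5 CPM in DMSO and at 114 and 113 CPM in DMSO + LPS. It was at 101 and 100 CPM with 3.2 µM of 1, at 91.0 and 80.4 CPM with 10 µM, and at 68.6 and 66.0 CPM with 32 µM. The 2 libraries of every condition lay apart from those of every other condition, with the level stepping down with each dose and remaining above DMSO. LPS raised it 3.27-fold (log2 1.71 ± 0.06 SE, n = 2 and 2, edgeR adjusted p = 2.19e-07).

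At 32 µM Bcl2l1 was 0.592 of DMSO + LPS (log2 -0.76 ± 0.06 SE, edgeR adjusted p = 1.54e-04), past the threshold in all 19 alternatives. At 10 µM it was 0.754 (log2 -0.41 ± 0.06 SE, edgeR adjusted p = 0.0136), and without 10 µM replicate 1, the library with most Epcam and Krt8 counts, -0.50 (edgeR adjusted p = 0.00754). The 10 µM value passed in 16 of 19 alternatives and was lost without DMSO + LPS replicate 1 (0.123), without DMSO + LPS replicate 2 (0.113) and with edgeR on the 4 libraries compared (0.181). At 3.2 µM the log2 difference was -0.18 ± 0.06 SE, with an unadjusted p of 0.0201 and an edgeR adjusted p of 0.999. It passed with the score as a covariate (edgeR adjusted p = 0.0197) and on the 4 libraries compared (0.0255). At that dose 183 and 487 of all tested genes passed in these settings, in that order, against 0 in the unaltered fit. On the log2 scale, 44.2% of the rise with LPS was missing at 32 µM, 23.8% at 10 µM and 10.3% at 3.2 µM.

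The Bcl2a1 genes encode A1, a small prosurvival protein whose gene responds strongly to NF-kB. Bcl2a1d, the copy with most counts, was at 7.74 and 6.48 CPM in DMSO and at 88.1 and 89.4 CPM in DMSO + LPS. With 3.2 µM it was at 90.0 and 85.6 CPM, with 10 µM at 66.2 and 63.2 CPM, and with 32 µM at 55.1 and 49.2 CPM. The 3.2 µM libraries lay around those of DMSO + LPS, and those of 10 and 32 µM lay below both. LPS raised it 12.5-fold (log2 3.64 ± 0.10 SE, edgeR adjusted p = 3.80e-08). At 32 µM it was 0.588 of DMSO + LPS (log2 -0.77 ± 0.08 SE, edgeR adjusted p = 8.60e-04), and at 10 µM 0.729 (log2 -0.46 ± 0.08 SE, edgeR adjusted p = 0.0330). The 10 µM value passed in 10 of 17 alternatives. It was lost on the 4 libraries compared (edgeR adjusted p = 0.0933) and without any 1 library of DMSO + LPS (0.214 and 0.234), 3.2 µM (0.0889 and 0.0895) or 10 µM (0.0873 and 0.0870), with a log2 difference of -0.49 without 10 µM replicate 1.

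Bcl2a1a had 0 and 2 counts in the DMSO libraries and 536 and 497 in DMSO + LPS, that is 9.36 and 10.6 CPM. The ratio of the summed depth-scaled counts was 573, with a 95% counting interval of 158 to 4735 that covers counting error only. With 3.2 µM the level was 10.1 and 9.54 CPM, with 10 µM 5.55 and 6.66 CPM, and with 32 µM 4.39 and 3.49 CPM, so the groups of 10 and 32 µM lay below DMSO + LPS without overlap. At 32 µM the log2 difference was -1.34 ± 0.21 SE (edgeR adjusted p = 0.00505), and without DMSO + LPS replicate 2 the edgeR adjusted p was 0.0621. At 10 µM it was -0.71 ± 0.20 SE (edgeR adjusted p = 0.164), and it passed with DESeq2 (adjusted p = 0.0115), with no filter (0.0443) and with the score as a covariate (0.00296). At that dose 598, 468 and 1676 genes passed in these settings, in that order, against 378 in the unaltered fit.

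Bcl2a1b behaved unlike its neighbours within conditions. It had 14 and 6 counts in DMSO and 232 and 272 counts in DMSO + LPS. With 3.2 µM there were 379 and 286 counts, with 10 µM 513 and 57, and with 32 µM 285 and 25. At 10 and 32 µM replicate 1 was 8.74-fold and 10.5-fold above replicate 2 in CPM, whereas Bcl2a1d differed 1.05-fold and 1.12-fold between the same libraries. In 5 of 5 conditions the library with the higher short-transcript score had the higher Bcl2a1b, and the same held for Bcl2a1d. Bcl2a1b was called higher with LPS (log2 4.81 ± 1.42 SE, edgeR adjusted p = 0.0225), a value lost without DMSO replicate 1 (0.0868), DMSO replicate 2 (0.124) or DMSO + LPS replicate 2 (0.0706). At 32 µM the interval of the log2 difference ran from -3.08 to 1.85, and at 10 µM from -2.09 to 2.74, so its direction with the compound was not resolved. With the score as a covariate Bcl2a1b passed at both doses, with log2 differences of -0.65 at 10 µM (edgeR adjusted p = 0.0235) and -0.79 at 32 µM (edgeR adjusted p = 0.00379). That setting passed 1676 of all tested genes at 10 µM and 3608 at 32 µM, against 378 and 1386 in the unaltered fit.

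**Figure D2:**
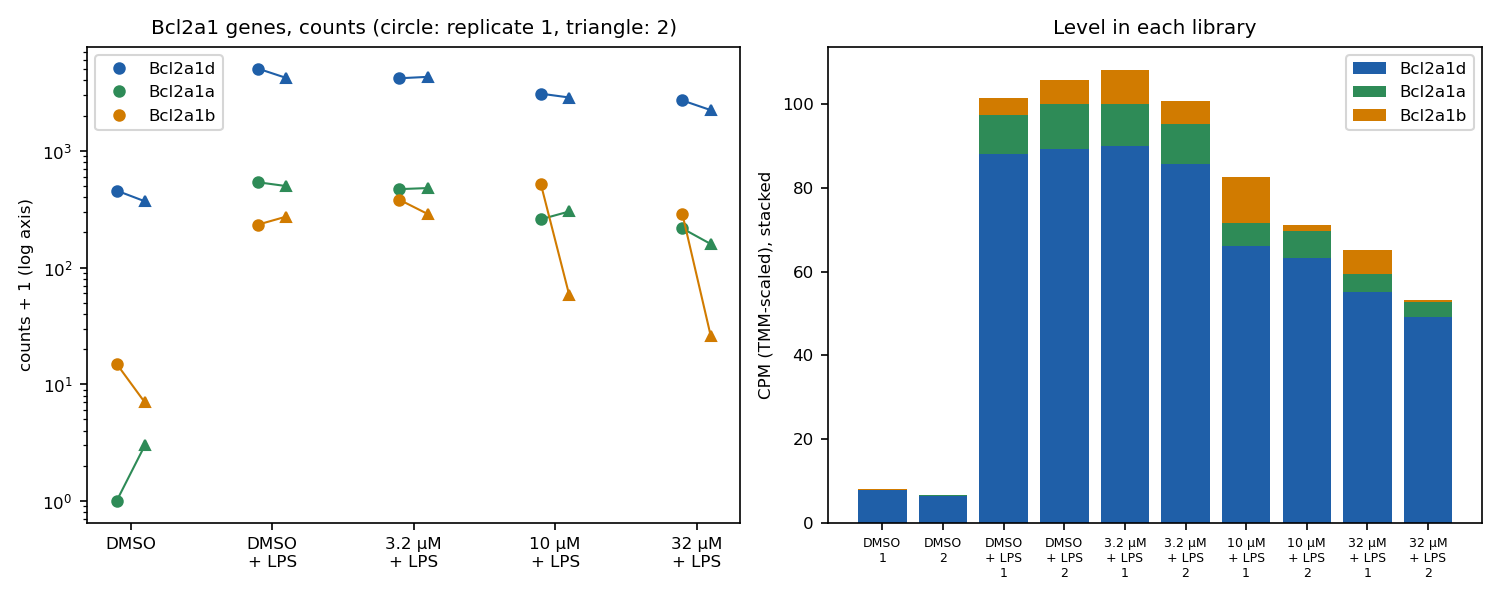
Left, counts plus 1 (log axis) of the 3 Bcl2a1 genes in each condition, with the 2 replicates joined by a line; right, the same genes stacked in TMM-scaled CPM for each library. Bcl2a1d supplied 79.8% to 97.9% of the family's counts in each library, and the lines of Bcl2a1b at 10 and 32 µM are the steep ones.

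Summed over the family, including the few counts of Bcl2a1c, the level was 7.30 ± 0.955 CPM in DMSO and 104 ± 3.00 CPM in DMSO + LPS (SD, n = 2). It was 105 ± 5.19 CPM with 3.2 µM, 77.0 ± 8.33 CPM with 10 µM and 59.4 ± 8.58 CPM with 32 µM. The sum was lower at 32 µM by 0.80 on the log2 scale (edgeR adjusted p = 0.00447), with a log2 difference of -0.43 at 10 µM (edgeR adjusted p = 0.155). With Bcl2a1b left out of the sum, a choice made after its replicates were seen, the log2 difference at 32 µM was -0.82 (edgeR adjusted p = 5.81e-04) and at 10 µM -0.48 (edgeR adjusted p = 0.0257).

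Mcl1, which encodes a short-lived prosurvival protein that many cells need, was at 407 and 457 CPM in DMSO. Its DMSO + LPS libraries had 545 and 569 CPM, those with 3.2 µM 550 and 549, those with 10 µM 526 and 568, and those with 32 µM 495 and 565 CPM. Every LPS-treated library lay above both DMSO libraries, and the dosed libraries overlapped those of DMSO + LPS. The rise with LPS was 1.29-fold (log2 0.37 ± 0.08 SE, edgeR adjusted p = 0.00547), and with library size alone it was 0.16 on the log2 scale (edgeR adjusted p = 0.112). At 32 µM the 95% interval of the log2 difference from DMSO + LPS ran from -0.26 to 0.11. Per kilobase of the longest annotated transcript, the mean level in DMSO + LPS was 233 CPM for Bax, 163 for Mcl1, 103 for Bcl2a1d, 67.2 for Bak1, 57.6 for Bcl2l11 and 44.2 for Bcl2l1, in that order. It was 12.2 for Bcl2a1a, 11.9 for Pmaip1, 6.02 for Bcl2a1b and 4.58 for Bbc3. The longest transcript of Bax has 1100 bases and its exons together 1576, so the place of Bax above Mcl1 depends on that choice of length. The values of the Bcl2a1 copies keep the uncertainty of their counts. Bcl2a1a and Pmaip1 lay within each other's spread, and the gap between Bcl2a1b and Bbc3 was smaller than the SD of Bcl2a1b (1.51) but not that of Bbc3 (0.0710).

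The effectors did not reach 1.5-fold in any comparison. Bax was at 224 and 228 CPM in DMSO and 255 and 257 CPM in DMSO + LPS, and its libraries at the 3 doses ran from 229 to 269 CPM, on both sides of DMSO + LPS. The log2 difference with LPS was 0.18 ± 0.08 SE (edgeR adjusted p = 0.116). It passed on the 4 libraries compared (edgeR adjusted p = 0.0186) and without 10 µM replicate 1 (0.0455), and with library size alone it was -0.0277. The 95% interval at 32 µM ran from -0.24 to 0.15. Of its exonic bases 12.2% were shared on the same strand with Gm45808. Bak1 was at 132 and 115 CPM in DMSO and rose to 160 and 161 CPM in DMSO + LPS. The libraries with 3.2 µM had 172 and 174 CPM, those with 10 µM 192 and 148, and those with 32 µM 161 and 133 CPM. The LPS difference was 1.30-fold (edgeR adjusted p = 0.0475), a value that lost the threshold with library size alone (0.340) and without any 1 library of DMSO, DMSO + LPS or 3.2 µM (0.0553 to 0.264), and the 10 µM libraries lay on both sides of DMSO + LPS. The highest library was 10 µM replicate 1, the one with most Epcam and Krt8 counts, and without it the log2 difference at 10 µM was -0.12 in place of 0.08 (edgeR adjusted p = 0.744 and 0.921). An antisense neighbour, Ggnbp1, had 48 to 67 counts per library.

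Among the BH3-only genes, Bcl2l11 rose with LPS, whereas Bbc3 and Pmaip1 fell. Bcl2l11, which encodes BIM, a partner of all prosurvival proteins, was at 34.2 and 36.7 CPM in DMSO and 291 and 288 CPM in DMSO + LPS, a log2 difference of 3.03 ± 0.05 SE (edgeR adjusted p = 4.15e-09). With 3.2 µM it was at 255 and 254 CPM, with 10 µM at 242 and 237 CPM, and with 32 µM at 240 and 235 CPM. All 6 dosed libraries lay below both DMSO + LPS libraries, and those of 10 and 32 µM overlapped.

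The log2 difference of Bcl2l11 from DMSO + LPS was -0.28 ± 0.05 SE at both 32 µM (edgeR adjusted p = 0.00578) and 10 µM (edgeR adjusted p = 0.0210), short of 1.5-fold. At 3.2 µM it was -0.19 ± 0.05 SE (unadjusted p = 0.00365, edgeR adjusted p = 0.788), and passed with DESeq2 (0.0364), with the score (0.0204) and on the 4 libraries compared (0.0101). At that dose 34, 183 and 487 genes passed in these settings, in that order, against 0 in the unaltered fit. The 10 µM value passed in 13 of 19 alternatives. It was lost on the 4 libraries compared (edgeR adjusted p = 0.199) and without either library of DMSO + LPS (0.186 and 0.156), either of 3.2 µM (0.0735 and 0.0736) or 10 µM replicate 1 (0.0665). At 32 µM the edgeR adjusted p without DMSO + LPS replicate 1 was 0.0587. Between 32 and 10 µM the 95% interval ran from -0.11 to 0.10.

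Bbc3, which encodes PUMA and is known as a target of p53, was at 21.4 and 19.9 CPM in DMSO and 8.21 and 8.39 CPM in DMSO + LPS. The fall was 1.31 on the log2 scale, that is a log2 difference of -1.31 ± 0.09 SE (edgeR adjusted p = 1.04e-05). The libraries with 3.2 µM had 7.25 and 8.22 CPM, those with 10 µM 7.29 and 7.68, and those with 32 µM 8.07 and 7.10 CPM. Each dosed library was below both DMSO libraries, and the 10 and 32 µM libraries were below those of DMSO + LPS. The log2 differences from DMSO + LPS were -0.10 at 3.2 µM, -0.15 at 10 µM and -0.13 at 32 µM, and none passed (edgeR adjusted p = 0.999, 0.659 and 0.531). At 32 µM against DMSO + LPS the interval of the log2 difference ran from -0.35 to 0.09.

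Pmaip1, which encodes NOXA, a partner of MCL1 and A1, was at 42.4 and 44.1 CPM in DMSO and 31.8 and 33.2 CPM in DMSO + LPS (log2 -0.41 ± 0.14 SE, edgeR adjusted p = 0.0343), a fall that lost the threshold without any 1 library of DMSO, DMSO + LPS or 3.2 µM (0.0610 to 0.154). With 3.2 µM it was at 32.5 and 33.1 CPM, with 10 µM at 30.8 and 40.8 CPM, and with 32 µM at 41.4 and 51.0 CPM. Both 32 µM libraries lay above both DMSO + LPS libraries, and replicate 2 lay above DMSO as well. The log2 difference at 32 µM was 0.51 ± 0.14 SE with an edgeR adjusted p of 0.0586, and 7 of 19 alternatives passed, among them DESeq2 with an adjusted p of 0.00681, the replicate block (0.0154), no filter (0.0107), either 10 µM library left out (0.0130 and 0.0134) and 32 µM replicate 1 left out (0.0478). Without 32 µM replicate 2, the library with most Gm42418 and Gm23935 counts, it was 0.35 (edgeR adjusted p = 0.307). The library with the higher short-transcript score had the higher Pmaip1 in 1 of 5 conditions, and with the score as a covariate the 32 µM difference passed (edgeR adjusted p = 1.95e-04). With the score 3608 of all tested genes passed at that dose, against 1386 in the unaltered fit.

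The question of what the compound changed under LPS was addressed against the 2 DMSO + LPS libraries, which all 3 doses share. At 32 µM, 3 of the 10 genes were called, all lower (Bcl2l1, Bcl2a1d and Bcl2a1a), where 4.18% of tested genes were called and 2.91% were called lower. Leaving out single libraries gave 2 to 4 called genes, 2 without DMSO + LPS replicate 2, where Bcl2a1a lost the threshold, and 4 without 32 µM replicate 1, where Pmaip1 was called higher (log2 0.65, edgeR adjusted p = 0.0478). With the score as a covariate 4 were called, Bcl2a1b being the fourth, where 777 of 14172 tested genes were called. Bcl2l11 also passed below 1.5-fold, and 5.72% of tested genes passed the adjusted p in the lower direction. The median log2 difference of the 10 genes was -0.21, and that of all tested genes 0.0082. At 10 µM none of the 10 was called by edgeR, where 0.861% of tested genes were, 3 passed the adjusted p in the lower direction (1.7% of tested genes did) and 4 had an unadjusted p below 0.05 (12.1% of tested genes did). DESeq2 called 1 of the 10 at that dose, where it called 177 of 24140 tested genes. On the 4 libraries compared edgeR called 0 of the 10, where it called 41 of 13350 tested genes. At 3.2 µM none was called by edgeR or DESeq2 (edgeR called 0% of tested genes), and 2 had an unadjusted p below 0.05 (4.23% of tested genes did). Between 32 and 10 µM none was called by either tool, where 1.32% of tested genes were, and Bcl2l1 alone passed the adjusted p of edgeR with a log2 difference of -0.35 ± 0.06 SE (edgeR adjusted p = 0.0240), as 1.95% of tested genes did in the lower direction, while 4 had an unadjusted p below 0.05 (12.5% of tested genes did). With DESeq2 2 passed, Bcl2a1d being the other (adjusted p = 0.0272), where 552 of 24140 tested genes passed. Bcl2a1d also passed with the replicate block (edgeR adjusted p = 0.0490) and with the score (9.30e-04). In this comparison 468 genes passed with the block and 1464 with the score, against 391 in the unaltered fit. Bcl2a1a (0.0189) and Pmaip1 (0.0114) passed with the score too, and Pmaip1 without 10 µM replicate 2 (0.0451). Bcl2l1 lost the threshold on the 4 libraries compared (edgeR adjusted p = 0.450) and without either library of DMSO + LPS (0.0683 and 0.0681), 3.2 µM (0.0733 and 0.0747) or 32 µM (0.0949 and 0.182), or 10 µM replicate 1 (0.0623).

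**Figure D3:**
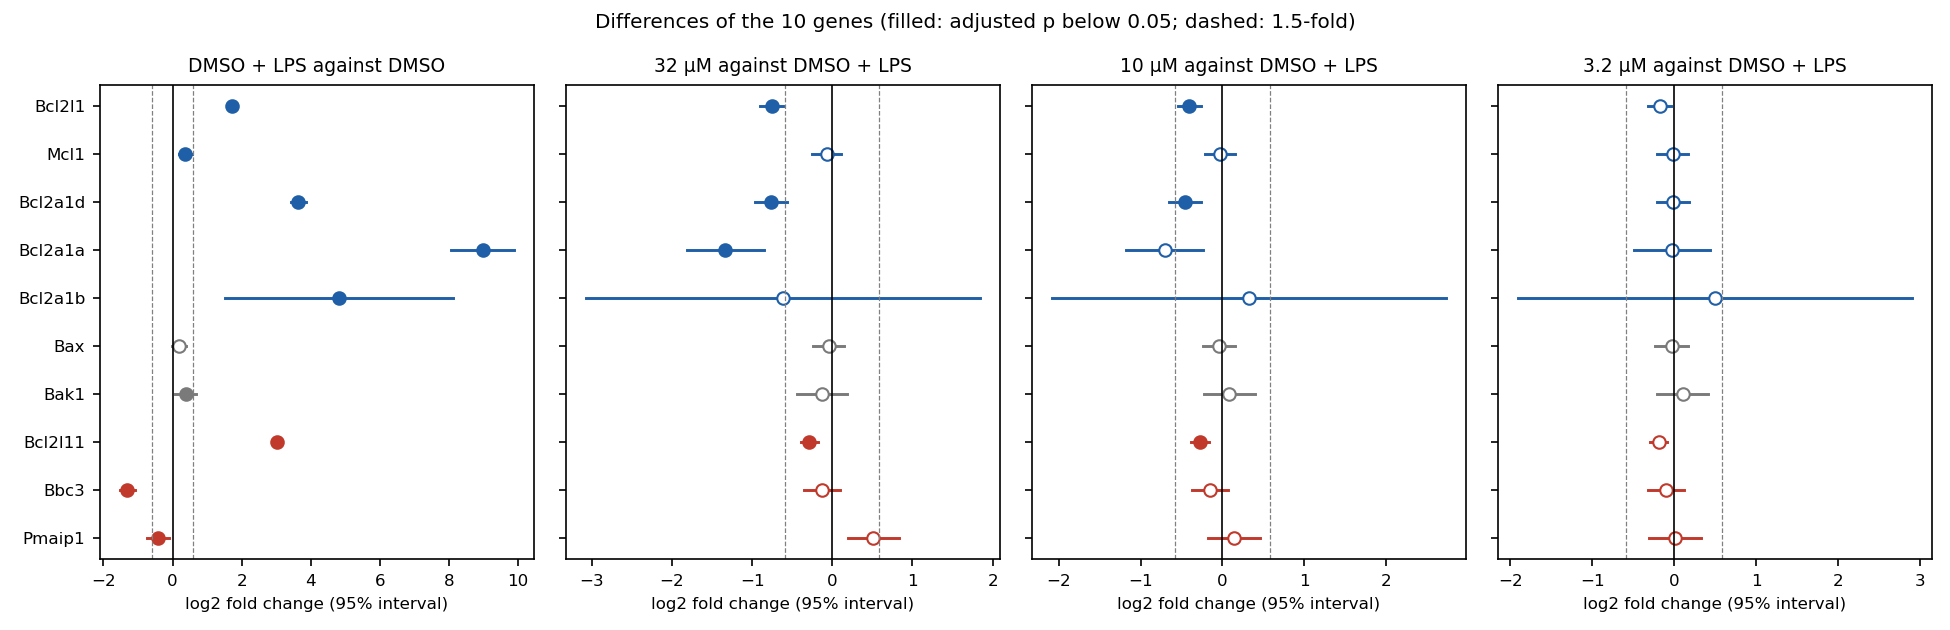
Log2 fold change (x axis, a scale of its own in each panel) of the 10 genes with LPS and with each dose of compound 1, with 95% intervals of the edgeR fit; filled points had an adjusted p below 0.05 and dashed lines mark 1.5-fold. With 32 µM the 3 filled points beyond the left dashed line are Bcl2l1, Bcl2a1d and Bcl2a1a, and at 3.2 µM no point is filled.

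Cells with LPS and 32 µM were also compared with DMSO. Of the 10 genes 6 were called, 5 higher and 1 lower, where 27.1% of tested genes were called, 13.9% higher and 13.3% lower. Bcl2l1 was 1.94-fold above DMSO (log2 0.95 ± 0.06 SE, edgeR adjusted p = 6.31e-06), Bcl2a1d 7.33-fold and Bcl2l11 6.71-fold, and Bbc3 was at 0.368 of DMSO. Bcl2a1b, also called (edgeR adjusted p = 0.0405), lost the threshold on the 4 libraries compared (0.0545), without any 1 library of DMSO, DMSO + LPS or 3.2 µM (0.0628 to 0.180) and without 32 µM replicate 1 (0.447). Bcl2a1a was the remaining gene called higher, at 3.94 CPM on average with 32 µM against 0.0176 CPM in DMSO. Mcl1 passed below 1.5-fold (log2 0.30 ± 0.08 SE, edgeR adjusted p = 0.0156), but not with library size alone (0.359), on the 4 libraries compared (0.0623), without DMSO replicate 1 (0.104) or without 32 µM replicate 2 (0.104). The log2 differences of Bak1 and Bax were 0.25 ± 0.13 SE and 0.13 ± 0.08 SE (edgeR adjusted p = 0.165 and 0.235). For Pmaip1 the log2 difference was 0.09 ± 0.14 SE (edgeR adjusted p = 0.605), with a 95% interval from -0.22 to 0.41, and it passed with the score (0.0146). In this comparison 9058 of all tested genes passed with the score, against 7208 in the unaltered fit.

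Other genes of the family and its pathway were counted from 11 lists chosen by gene name, with 71 tested genes in all. With LPS 35 of the 71 were called, where 28.2% of all tested genes were, and at 32 µM 5, where 4.18% were. The other shares of all tested genes to set beside the list counts are 14.6% called higher and 13.6% called lower with LPS, and 2.91% called lower at 32 µM. At 10 µM edgeR and DESeq2 each called 0 (18 had an unadjusted p below 0.05), and likewise 0 at 3.2 µM (4 below) and 0 between 32 and 10 µM (17 below). Of all tested genes, 56.2% had an unadjusted p below 0.05 with LPS, 22.2% at 32 µM, 12.1% at 10 µM, 4.23% at 3.2 µM and 12.5% between 32 and 10 µM, and these shares apply to the counts at an unadjusted p given for the lists. The median log2 difference of all tested genes was 0.0026 with LPS and 0.0082 at 32 µM, beside which the lists' medians can be set. Bcl2, the family's founder and a prosurvival gene, was at 8.45 ± 1.23 CPM in DMSO and 6.59 ± 0.286 CPM in DMSO + LPS (SD, n = 2), a log2 difference of -0.36 ± 0.13 SE that passed below 1.5-fold (edgeR adjusted p = 0.0496), and at 32 µM the difference from DMSO + LPS was -0.08 ± 0.13 SE (edgeR adjusted p = 0.825). Hrk was at 0 in every library. Of the 4 other BH3-only genes tested, 2 were called higher and 1 lower with LPS (median 0.52), and the median at 32 µM was -0.02. Bid, which links death receptors to mitochondria, rose 1.96-fold with LPS and was at a log2 difference of 0.05 ± 0.04 SE at 32 µM. Bmf was at 36.9 ± 1.89 CPM in DMSO and 6.58 ± 0.179 CPM in DMSO + LPS, a log2 difference of -2.49 (edgeR adjusted p = 1.01e-07). With compound it was at 6.85 ± 0.376 CPM at 3.2 µM, 9.44 ± 0.548 CPM at 10 µM and 12.2 ± 0.490 CPM at 32 µM (SD, n = 2). At 32 µM Bmf was 1.85-fold above DMSO + LPS (log2 0.89 ± 0.08 SE, edgeR adjusted p = 2.38e-04), and it was the only one of the 4 called at that dose. Bcl2l2, a prosurvival gene, rose 2.26-fold with LPS (edgeR adjusted p = 1.04e-06) and passed the test at 32 µM with a log2 difference of 0.23 (edgeR adjusted p = 0.0388). Bik was a gene of low counts, with means of 0.0176 CPM in DMSO and 0.424 CPM in DMSO + LPS. The effector-like Bok was not called with LPS (log2 -0.54 ± 0.40 SE, edgeR adjusted p = 0.305), and of 6 tested genes related to BCL2 only Bcl2l15 was (log2 3.58, edgeR adjusted p = 6.19e-05, list median 0.07).

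**Figure D4:**
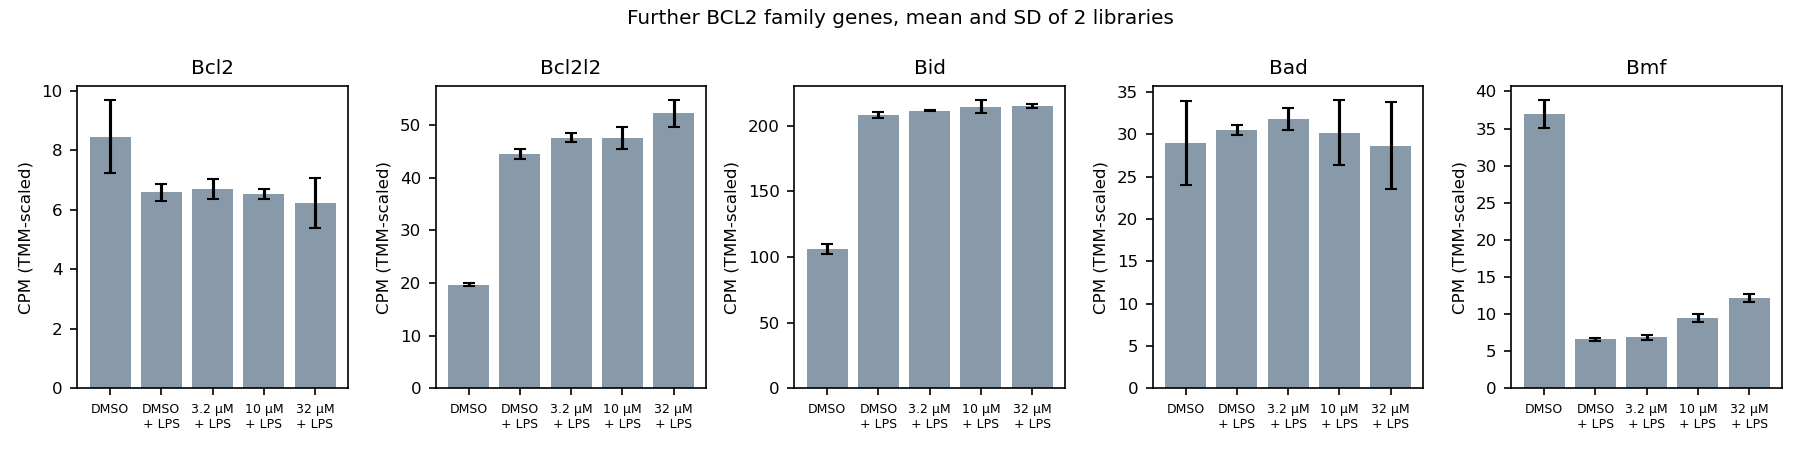
Mean level (y axis, TMM-scaled CPM, bars from 0) of Bcl2, Bcl2l2, Bid, Bad and Bmf in the 5 conditions, with SD of 2 libraries as error bars. Bid and Bcl2l2 were higher in every LPS condition than in DMSO, and Bmf fell with LPS and stood at 12.2 CPM with 32 µM.

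The survival genes known to answer to NF-kB rose together with LPS: 9 of 9 were called higher, where 14.6% of all tested genes were, with a median log2 difference of 2.86, and the largest differences were those of Traf1 (5.80), Ier3 (5.62) and Tnfaip3 (3.96). At 32 µM 2 of the 9 were called lower, Gadd45b (-0.89) and Tnfaip3 (-0.59), where 2.91% of all tested genes were, 5 passed the test in the lower direction, where 5.72% did, and the median was -0.36. Of 10 death receptor genes, 5 were called higher with LPS (median 0.71), among them Fas (3.89), Tnfsf10, the ligand TRAIL (3.53), and the necroptosis gene Mlkl (2.00). At 32 µM 1 of the 10 was called, Tnfsf10, at a log2 difference of -2.39, while 4 of the 10 passed the adjusted p of edgeR in the lower direction, 6 had an unadjusted p below 0.05 and the list's median was 0.0069.

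Of 13 genes of p53 and its targets, 2 were called higher and 5 lower with LPS, where 14.6% and 13.6% of all tested genes were, with Trp53inp1 (-2.32), Gtse1 (-2.13) and Sesn1 (-1.70) the largest and a median of -0.45. At 32 µM 0 of the 13 were called by edgeR or DESeq2, and the median was -0.10. In the lower direction 2 passed the adjusted p of edgeR, where 5.72% of all tested genes did, and 3 had an unadjusted p below 0.05. Among 11 genes of caspase activation, cytochrome c (Cycs, 0.75) was called higher with LPS, and the list's medians were -0.18 with LPS and -0.09 at 32 µM. Of 6 inhibitors of apoptosis, Cflar (1.92) and Birc3 (1.85) were called higher and Birc5 (-1.89) lower with LPS. At 32 µM 0 were called by edgeR or DESeq2, and 1 passed the adjusted p of edgeR in the lower direction (medians 0.14 with LPS and 0.0036 at 32 µM). Of 7 tested transcription factors of BH3-only genes, 4 were called higher and 2 lower with LPS, led by Myc (5.35), Ddit3 (1.07) and Atf4 (1.02). At 32 µM 0 were called by edgeR or DESeq2, 1 passed the adjusted p of edgeR in the lower direction and 3 had an unadjusted p below 0.05 (medians 0.79 with LPS and -0.06 at 32 µM). Of 4 tested genes of MCL1 turnover, 0 were called by edgeR or DESeq2 with LPS, where 1 passed the adjusted p of edgeR in the higher direction. At 32 µM 0 were called and 2 had an unadjusted p below 0.05, with medians of -0.0093 with LPS and -0.07 at 32 µM.

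The genes whose levels followed each member most closely across the 10 libraries were sought among 9553 genes with a mean of at least 5 CPM. These correlations share the libraries and include the step from DMSO to LPS, and are given as a description. Upp1 was closest to Bcl2l1 (Pearson r = 0.998, n = 10 libraries), Ikbke to Bcl2a1a (0.998), 6530402F18Rik to Bcl2a1d (0.999) and Stk10 to Bcl2l11 (0.999). The closest genes of Bcl2a1b and Mcl1 were Emd (0.989) and Cbwd1 (0.987), and those of Bax and Bak1 were Fbxw8 (0.948) and Mrpl44 (0.994). Serinc3 was closest to Bbc3 (0.993) and Mthfd1l to Pmaip1 (0.977). The next genes in order were Tmem132a for Bcl2l1, Nfkb1 for Bcl2a1a, Cklf for Bcl2a1b, Slfn2 for Bcl2a1d, Ralb for Mcl1, Nfkb2 for Bcl2l11, Cog1 for Bax, Emd for Bak1, Smpdl3b for Bbc3 and Zkscan3 for Pmaip1, with r from 0.937 for Cog1 to 0.999 for Nfkb2.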

How the data were processed

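RNA-seq of 10 RAW264.7 libraries, 2 per condition, was analysed. The deposited table holds raw counts per gene, made by the authors from poly(A)-selected, directional paired-end libraries. The submitters' processing notes name Trimmomatic, FastQC, STAR and DESeq2 with build mm10. The counter, strand setting, annotation and versions are not given in the sources used here. Tables of the authors' own comparisons hold fold changes and p-values and were not used. The members and lists were chosen with earlier results of these data known.

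Counts were filtered (filterByExpr, minimum count 10) and scaled by TMM. All 10 libraries entered a single quasi-likelihood fit in edgeR 4.0.16 (R 4.3.3) with a mean per condition, and p-values were adjusted over 14172 genes by Benjamini-Hochberg. Called genes had an adjusted p below 0.05 and at least 1.5-fold change. With 2 libraries against 2, an exact permutation test could not go below p = 0.333. Standard errors are the log2 fold change over the root of F. The scripts were tested on simulated data.

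The 10 genes were tested in every comparison and named by rule, as were up to 3 called genes with the largest change from each list. The 2 closest genes of each member by Pearson correlation were computed. Alternatives were DESeq2 1.42.0, its size factors, library size alone, no filter, 4 libraries only, a replicate block, the short-transcript score as a covariate, summed Bcl2a1 genes and leaving out each library. Replicate numbers were not shown to pair the libraries: correlations of the replicate deviations from the group means ran from -0.169 to 0.573. Promoters were taken from RefSeq. The result of 1 listed gene is not reported here.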

Additional observations from a re-analysis of the deposited data

Results flagged for a closer look

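The log2 difference of Bcl2l1 between 32 and 10 µM was -0.35 (edgeR adjusted p = 0.0240), by a test of the difference between the doses itself, and it was listed because the 2 doses' effects against DMSO + LPS differed by it. The 32 µM libraries were at 68.6 and 66.0 CPM and the 10 µM libraries at 91.0 and 80.4 CPM. Leaving out single libraries moved the difference between -0.43 and -0.26, with edgeR adjusted p-values from 0.00806 to 0.182.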

How the results depend on the processing

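Over 60 member results and their alternatives, 997 of 1116 values kept their direction and their side of the threshold, 56 lost the threshold, 25 gained it and 38 changed sign. Members called at 10 µM numbered 1 with no filter, 1 with DESeq2 and 2 with the short-transcript score; against 10 µM, 32 µM gave 1 with the score, and 0 to 1 when single libraries were left out. All genes called at 10 µM numbered 122, and 232 with the score, 41 on 4 libraries and 52 to 227 without single libraries; at 3.2 µM 0, with 1 under no filter, 1 with DESeq2, 6 with the score, 66 on 4 libraries and 0 to 1 without single libraries; between 32 and 10 µM 187, and 295 with the score or 5 on 4 libraries. Library size alone shifted the median of all genes with LPS by -0.20 (1582 called higher and 2938 lower in place of 2072 and 1923), and turned Bax to -0.0277 with LPS, and Bax to -0.0689 and Pmaip1 to -0.11 at 32 µM against DMSO. With the score, genes at an adjusted p below 0.05 numbered 3608 at 32 µM, 1676 at 10 µM and 183 at 3.2 µM. On the 4 libraries compared they numbered 985, 41 and 487, and in the unaltered fit 1386, 378 and 0. A member that passed in such a setting is to be read beside these counts. At 10 µM Bcl2a1b was -0.26 with the replicate block and -0.65 with the score, and at 3.2 µM -0.40 with the score. Also reversed were Mcl1 at 3.2 µM (0.0248, score), Bcl2a1d at 3.2 µM (0.0139, genes summed) and Bax between 32 and 10 µM (4.109e-05 with no filter, 0.0011 with DESeq2, 0.0325 with the score). Leaving out single libraries gave ranges that crossed 0. At 32 µM these were Bak1 (-0.27 to 0.00403), Bax (-0.13 to 0.0345), Bcl2a1b (-3.15 to 0.24) and Mcl1 (-0.17 to 0.0200). At 10 µM they were Bak1 (-0.12 to 0.24), Bax (-0.16 to 0.0458), Bcl2a1b (-1.96 to 1.14), Mcl1 (-0.11 to 0.0286) and Pmaip1 (-0.10 to 0.33). At 3.2 µM they were Bax (-0.0720 to 0.00750), Bcl2a1a (-0.11 to 0.0689), Bcl2a1d (-0.0501 to 0.0190), Mcl1 (-0.0501 to 0.0140) and Pmaip1 (-0.0151 to 0.0471). Between 32 and 10 µM they were Bax (-0.11 to 0.12), Bbc3 (-0.0735 to 0.11), Bcl2a1b (-3.47 to 1.35), Bcl2l11 (-0.0212 to 0.00740) and Mcl1 (-0.14 to 0.0478), and for Pmaip1 at 32 µM against DMSO -0.0665 to 0.24. The sum of Bcl2a1a and Bcl2a1d was chosen after seeing the data. The cause of these changes was not tested. The labels do not say what replicate numbers share, and replicate deviations correlated from 0.104 to 0.573 among DMSO and the 3 doses but from -0.169 to -0.0664 with DMSO + LPS. The replicate block took Pmaip1 at 32 µM (edgeR adjusted p = 0.0154) and Bcl2a1d between 32 and 10 µM (0.0490) past the threshold. The 2 libraries per group limit what could be detected.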
